A study of Mus musculus with 23 samples.

Results

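Brain RNA from 4 samples of wild-type (WT) C57BL/6J mice fed PLX5622 was compared with that of 3 WT samples fed control chow, 7 of the 23 bulk RNA-seq libraries of the series. The members were chosen by their labels alone, as the libraries labelled WT on PLX5622 and WT on control chow. PLX5622 was given in chow at 1200 mg/kg for 14 days, and the controls carry no other treatment in the labels. Beside them stood 4 libraries of mice with Csf1R-G793A, a substitution in the CSF1 receptor, on the same PLX5622 chow, 4 Csf1R-G793A libraries on control chow and 4 WT libraries on PLX3397 chow (290 mg/kg). All ate their chow for 14 days. The tissue is labelled brain with no region, and the labels name no age, sex or batch. They do not say that each library is a separate mouse, so the p-values rest on a spread between samples that may be technical.

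CSF1R is a receptor tyrosine kinase that binds 2 ligands, CSF1 and IL34, and signals for the survival of microglia, the resident macrophages of the brain parenchyma. Macrophages of the meninges, perivascular spaces and choroid plexus, called border-associated macrophages, also carry it. PLX5622 is an inhibitor of the receptor's kinase that reaches the brain from chow and is used to remove microglia from it. In whole-tissue RNA, fewer cells of a type and less RNA per cell cannot be told apart, and that holds for every gene below.

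The libraries held 36.2, 29.7, 31.8 and 34.7 M counts (M, mega) in WT PLX5622 replicates 1 to 4, against 35.1, 33.8 and 39.5 M counts in WT control replicates 1 to 3. Levels are counts-per-million (CPM) of the scaled library size. Fold changes are log2 values of WT PLX5622 over WT control with their standard error (SE), and a gene was called at an edgeR quasi-likelihood adjusted p under 0.05 over all 16209 genes tested. Some libraries stood apart in regional transcripts. Those of the cerebellum and pituitary were high in WT PLX5622 replicate 1: Pcp2, a Purkinje cell gene, stood at 8.73, 0.238, 0.189 and 0.373 CPM in PLX5622 replicates 1 to 4, against 0.0846, 0.178 and 0.149 CPM in the controls. Prl, the pituitary hormone prolactin, stood at 66.1, 0.442, 0 and 6.56 CPM in the PLX5622 libraries, against 0.113, 0 and 0.248 CPM in the controls. The 15 cerebellar genes summed to between 276 and 467 CPM in PLX5622 libraries and between 250 and 341 CPM in controls, and the 12 pituitary genes to between 5.76 and 106 CPM in PLX5622 libraries and between 3.42 and 7.28 CPM in controls. In control replicate 3, Slc17a6, a glutamate transporter abundant in the thalamus, stood at 187 CPM, against 113 and 99.5 CPM in control replicates 1 and 2. Among the Csf1R-G793A libraries on PLX5622, replicate 2 also held cerebellar transcripts, with Pcp2 at 35.9 CPM, against 0.198 to 0.276 CPM in the other 3. Counts of calls are therefore also given without WT PLX5622 replicate 1.

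Far more genes were lower than higher with PLX5622. In all, 269 genes were called, 257 lower, which is 1.59% of the genes tested, and 12 higher, which is 0.074%. That 1.59% is the share over all genes to set beside every count of lower calls in a list below. In each of the 269, all 4 PLX5622 libraries lay on one side of all 3 controls, an order that 5.26% of all genes tested showed downward and 3.68% upward. The lower genes had a median log2 fold change of -1.53, and 22 of them lay under -3, 60 between -3 and -2, 95 between -2 and -1, and 80 above -1. The higher genes had a median of 0.41 and ran from 0.31 to 1.16. The median over all genes tested was 0.007, and 1367 genes had an unadjusted p under 0.05. Leaving out any 1 of the 7 libraries kept 183 of the 257 lower calls in every one of the 7 fits, and 0 of the 12 higher calls. Without PLX5622 replicate 1, the library with cerebellar transcripts, 233 of the 257 lower calls and 9 of the 12 higher calls were kept.

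**Figure D1:**
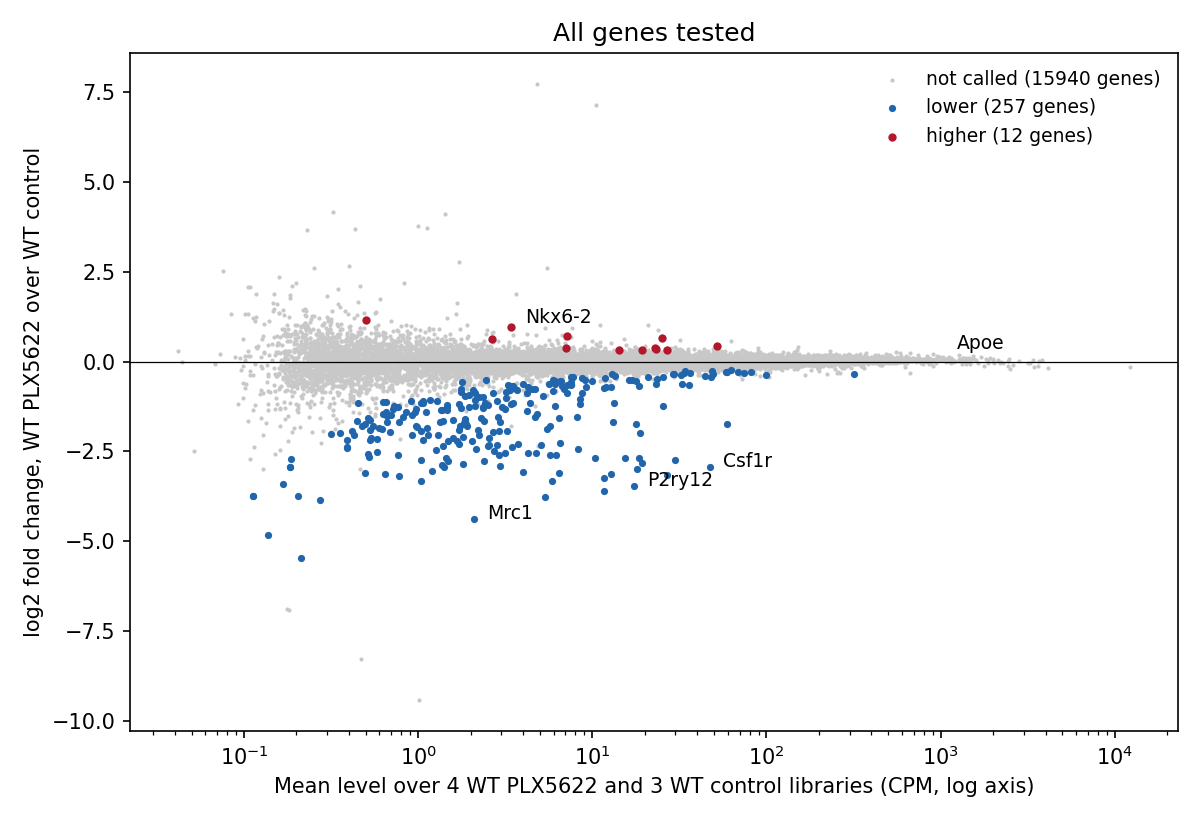
Log2 fold change of WT PLX5622 over WT control (y) against the mean level over the 7 libraries in CPM on a log axis (x), 1 point per gene tested. The 257 genes called lower (blue) reach from small falls among abundant genes to -4.37 in Mrc1 and further below in low-count genes, the 12 called higher (red) stay between 0.31 and 1.16, and Apoe sits on the zero line.

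Csf1r, the gene of the drug's target, fell. It stood at 15.8, 5.92, 15.3 and 11.8 CPM in PLX5622 replicates 1 to 4, against 95.1, 93.4 and 92.8 CPM in the controls. The groups lay far apart, and replicate 2 was the lowest of the PLX5622 libraries. Its log2 fold change was -2.93 ± 0.21 (SE; adjusted p = 1.57e-08), a fitted level of 13.1% of control. Neither ligand was called. Csf1 stood at 22.5, 21.7, 22.9 and 23.7 CPM in PLX5622 libraries, against 20.8, 21.8 and 23 CPM in controls, with a log2 fold change with a 95% interval from -0.10 to 0.21 (adjusted p = 0.94). Il34 had an interval from -0.15 to 0.18 (adjusted p = 0.99). Of 13 receptors and ligands of the CSF1R, KIT, FLT3 and PDGF receptor families, Csf1r alone was called. Kit, the stem cell factor receptor, stood at 0.28 (log2, 95% interval 0.04 to 0.52, adjusted p = 0.435), and Flt3 at 0.05 (interval -0.25 to 0.36, adjusted p = 0.979).

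The genes that define resting microglia fell together and by much. Of 15 homeostatic microglia genes, 14 were called lower, beside 1.59% of all genes tested, and their median log2 fold change was -2.67, against 0.007 over all genes. P2ry12, the ADP receptor that directs microglial processes to injured cells, stood at 4.74, 1.53, 3.43 and 3.18 CPM in PLX5622 libraries, against 35.7, 38.4 and 33.8 CPM in controls. That is a log2 fold change of -3.46 ± 0.20 (SE; adjusted p = 3.85e-10), or 9.08% of control. P2ry13, its neighbour in the purinergic family, stood at 0.964, 0.17, 1.2 and 0.917 CPM in PLX5622 libraries, against 11.2, 11.4 and 11.5 CPM in controls (log2 -3.78 ± 0.25, adjusted p = 8.04e-10). Replicate 2 lay clearly below the other 3 PLX5622 libraries in both genes. Siglech, a sialic-acid-binding lectin of microglia, stood at 1.68, 0.749, 1.48 and 0.917 CPM in PLX5622 libraries, against 12.6, 12.4 and 11.2 CPM in controls (log2 -3.31 ± 0.19, adjusted p = 5.11e-11).

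Other members of the list ranged widely. Tmem119, a microglial membrane protein, fell to 15.7% of control, Trem2, a lipid-sensing receptor, by 2.32 on the log2 scale, and Tgfbr1, the type I TGF-beta receptor, to 42.9%. Golm1 fell least among those called, to 63.0%. The member that was not called was Sall1, a transcription factor of microglial identity, with 17.4, 15.5, 22.2 and 18.0 CPM in PLX5622 libraries, against 24.0, 24.0 and 25.3 CPM in controls. Its groups did not overlap, and its log2 fold change was -0.42 ± 0.18 (SE; adjusted p = 0.489). Replicate 2 had the lowest level of the 4 PLX5622 libraries in 14 of the 15 genes, and replicate 1 the highest in 11. A mean log2 level of the list was taken with a small constant added to each CPM, which shrinks the falls of genes at low CPM. Set against the WT control mean, it was -1.88, -2.86, -2.2 and -2.23 in PLX5622 replicates 1 to 4. On that scale this is 27.2%, 13.7%, 21.8% and 21.3% of the control level, while the controls lay at 0.03, 0.04 and -0.07.

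**Figure D2:**
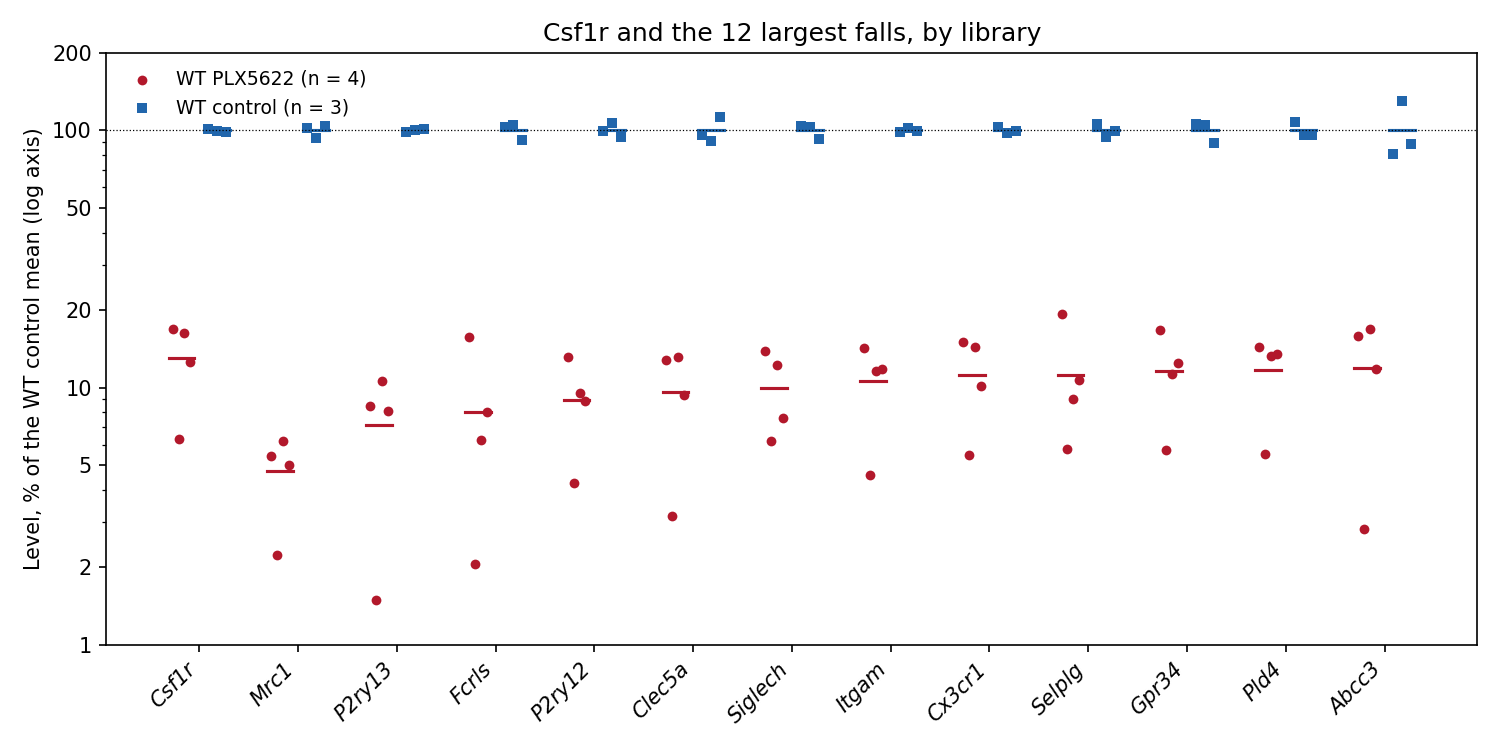
Level of Csf1r and of the 12 largest falls, each library as a percent of the WT control mean on a log axis (y), by gene (x); circles are WT PLX5622 libraries, squares WT control libraries and bars group means. The highest circle of all is at 19.4% (Selplg, replicate 1), and the lowest circle of each gene is replicate 2.

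The promoters of genes that fell were searched for the core of the sequence that PU.1 recognises. PU.1, the product of Spi1, is the master transcription factor of the myeloid lineage. The letters were GAGGAAGT, or ACTTCCTC on the other strand, in RefSeq promoters (GRCm38.p6). Each promoter reaches from 250 bases before to 50 after a gene's start, a length of 300 bases. No other motif was searched, so the letters cannot be credited to PU.1 alone. The letters were found in 31 of 245 promoters of the genes called lower (12.7%; 198 of the 257 genes matched by symbol). Those promoters belong to 30 genes. Pik3cg counts more than once, because its overlapping promoters hold the same stretch. The share was 2.84% of 16040 promoters of genes tested and 3.2% of all 32851 promoters, and the letters were in 0 of 10 promoters of the genes called higher, 9 of which matched. The 4 promoters below belong to the lower genes with the smallest p among those holding the letters, and are shown so that the position of the letters, in capitals, can be read against the gene's start, which follows base 250. Pld4 (chr12:112760405-112760704, plus strand) encodes an endolysosomal exonuclease, Cd53 (chr3:106790100-106790399, minus strand) a leukocyte tetraspanin, Hpgds (chr6:65144681-65144980, minus strand) the haematopoietic prostaglandin D synthase, and Vav1 (chr17:57278850-57279149, plus strand) a guanine nucleotide exchange factor of blood cells.
Pld4: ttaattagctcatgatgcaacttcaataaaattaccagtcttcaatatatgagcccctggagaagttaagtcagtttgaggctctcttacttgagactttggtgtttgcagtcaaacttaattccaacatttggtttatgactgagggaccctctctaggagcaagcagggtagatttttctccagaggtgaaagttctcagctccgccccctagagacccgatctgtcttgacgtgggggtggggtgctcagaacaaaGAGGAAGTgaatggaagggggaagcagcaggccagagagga
Cd53: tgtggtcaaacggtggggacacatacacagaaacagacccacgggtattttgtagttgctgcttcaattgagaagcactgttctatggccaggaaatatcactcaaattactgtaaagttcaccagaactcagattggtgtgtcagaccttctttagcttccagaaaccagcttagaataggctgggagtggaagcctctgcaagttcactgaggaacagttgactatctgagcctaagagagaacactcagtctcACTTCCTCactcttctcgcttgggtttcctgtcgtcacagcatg
Hpgds: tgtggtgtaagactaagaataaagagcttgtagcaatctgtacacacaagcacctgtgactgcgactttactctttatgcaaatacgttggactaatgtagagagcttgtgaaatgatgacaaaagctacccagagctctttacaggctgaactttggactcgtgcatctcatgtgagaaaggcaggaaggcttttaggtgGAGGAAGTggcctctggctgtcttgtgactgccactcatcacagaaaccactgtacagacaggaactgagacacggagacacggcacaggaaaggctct
Vav1: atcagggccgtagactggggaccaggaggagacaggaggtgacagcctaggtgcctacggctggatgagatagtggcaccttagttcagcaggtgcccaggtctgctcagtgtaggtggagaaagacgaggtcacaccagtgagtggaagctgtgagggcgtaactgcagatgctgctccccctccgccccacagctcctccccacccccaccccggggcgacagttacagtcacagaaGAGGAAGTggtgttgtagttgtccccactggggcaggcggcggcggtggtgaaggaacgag
A match in these letters is not a binding site shown by these data. The sequences are printed 5′ to 3′ in the direction of the gene.

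These 4 genes fell to similar fractions of control. Pld4 stood at 1.16, 0.442, 1.07 and 1.09 CPM in PLX5622 libraries, against 8.65, 7.72 and 7.75 CPM in controls (log2 -3.07 ± 0.18, SE; adjusted p = 5.11e-11). Cd53 fell to 17.0% of control, Hpgds to 16.5% and Vav1 to 13.9%. Spi1 itself stood at 0.826, 0.545, 0.598 and 0.344 CPM in PLX5622 libraries, against 3.24, 2.44 and 2.35 CPM in controls (log2 -2.2 ± 0.23, adjusted p = 6.25e-07).

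Some transcription factors on the list for the lineage were called lower and others were not. Of 15 on the list, 6 were called lower and 0 higher, with a median log2 fold change of -0.42. Beside Spi1, the called ones were Irf8, a myeloid interferon regulatory factor (34.0% of control, adjusted p = 1.99e-05), Irf5 (30.5%, adjusted p = 3.27e-06), Ikzf1, the lymphoid and myeloid factor Ikaros (32.0%, adjusted p = 9.06e-06), Runx1 (41.6%, adjusted p = 0.0019) and Fli1 (65.2%, adjusted p = 0.00422). Maf, a large Maf factor of macrophages, was not called, with a 95% interval of its log2 fold change from -0.25 to 0.13. Mef2c, which neurons also express, had an interval from -0.02 to 0.51. Cebpa stood at -0.29 (interval -0.52 to -0.06, adjusted p = 0.392). In sum the list stood between 658 and 840 CPM in PLX5622 libraries and between 605 and 753 CPM in controls. Which cells carry the members that were not called was not tested.

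Genes shared by myeloid cells at large also fell. Of 16, 14 were called lower, with a median log2 fold change of -2.22. Itgam, the CD11b integrin chain, stood at 3.42, 1.09, 2.77 and 2.84 CPM in PLX5622 libraries, against 23.7, 24.4 and 23.8 CPM in controls (log2 -3.22 ± 0.22, SE; adjusted p = 3.67e-09). Aif1, which encodes the IBA1 antigen, fell to 25.6% of control, Cd68, a lysosomal glycoprotein of macrophages, to 36.4%, and Laptm5, a lysosomal membrane protein, to 15.7%. Ctss, the cysteine protease cathepsin S, stood at 9.17, 4.56, 11.5 and 9.52 CPM in PLX5622 libraries, against 63.8, 56.5 and 54.4 CPM in controls. Lyn and Inpp5d, a Src family kinase and the SHIP1 phosphatase, kept more, at 42.7% and 48.9% of control. Ptprc, the CD45 antigen, missed the threshold (log2 -0.85 ± 0.22, adjusted p = 0.0578) with 2.26, 2.21, 2.49 and 1.58 CPM in PLX5622 libraries, against 3.27, 3.98 and 4.23 CPM in controls. Coro1a, an actin-binding protein, had an interval from -0.21 to 0.14.

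The signalling chain below CSF1R and the DAP12 adaptor was lower at many of its steps. Of 20 genes, 12 were called lower and 0 higher, with a median of -1.06. Tyrobp, which encodes DAP12, stood at 2.07, 0.953, 2.01 and 2.12 CPM in PLX5622 libraries, against 12.9, 9.24 and 10.5 CPM in controls (log2 -2.59 ± 0.20, SE; adjusted p = 6.91e-09). Replicate 2 was the lowest of its PLX5622 libraries. Pik3cg, the gamma catalytic subunit of PI3-kinase, fell to 14.7% of control, Bin2, a membrane-bending protein of leukocytes, to 14.7%, Ptpn6, the SHP1 phosphatase, to 26.6%, Syk, the kinase that DAP12 recruits, to 46.8%, and Plcg2, a phospholipase C, to 57.4%. The call of Plcg2 was lost without control replicate 3 (adjusted p = 0.0632). Grb2, Cbl, Dok1, Dok2, Dok3, Fgr, Pik3r5 and Sla were not called.

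Receptors by which microglia sense their surroundings were mostly lower. Among 8 purinergic receptors and ectoenzymes, 6 were called lower (median -1.93). P2ry6, the UDP receptor tied to phagocytosis, fell to 31.2% of control and Adora3, an adenosine receptor, by 2.19 on the log2 scale. Entpd1, the ectonucleotidase CD39 that vessels also carry, fell to 61.2%. P2rx4 and P2rx7 were not called. Of 7 Fc receptor genes, 6 were called lower (median -2.48). Fcrls, a microglial Fc-receptor-like scavenger, stood at 3.88, 0.511, 1.54 and 1.98 CPM in PLX5622 libraries, against 25.6, 26 and 22.6 CPM in controls (log2 -3.60 ± 0.29, SE; adjusted p = 4.98e-08). Replicate 1 was the highest and replicate 2 the lowest of its PLX5622 libraries. Fcgr3, an activating IgG receptor, fell to 16.6% of control, and Fcer1g, the shared signalling chain, to 18.0%.

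Complement genes of microglia fell steeply. Of 11 tested, 8 were called lower, with a median of -1.79. C1qa stood at 6.69, 1.5, 5.44 and 4.56 CPM in PLX5622 libraries, against 40.3, 33.7 and 34.5 CPM in controls (log2 -2.97 ± 0.26, SE; adjusted p = 2.28e-07). C1qb and C1qc, the other two chains of C1q, fell to 14.1% and 15.5% of control. C3ar1 and C5ar1, receptors of the complement anaphylatoxins, fell to 31.5% and 22.4%. C3, the central component, was not called (log2 -0.79, interval -1.57 to -0.01, adjusted p = 0.587).

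Innate sensors, cytokine receptors and inhibitory receptors followed in part. Of 15 Toll-like receptor and adaptor genes tested, 7 were called lower (median -1.12), among them Tlr7, an RNA sensor (29.1% of control), Tlr13 (19.7%), Unc93b1, the chaperone of the endosomal Toll-like receptors (33.7%), and Cd180 (24.3%). Tlr3 had an interval from -0.36 to 0.13. Of 17 cytokine and cytokine receptor genes tested, 8 were called lower (median -0.39), and those were receptor genes, among them Il10ra, a chain of the interleukin-10 receptor (40.2%), Il6ra (51.4%), Il21r (26%) and Tnfrsf1b (44.2%). Il1b stood at 0.964, 0.851, 0.22 and 0.516 CPM in PLX5622 libraries, against 0.226, 0.178 and 0.198 CPM in controls. Replicate 3 lay among the controls while the other PLX5622 libraries lay above them, and the difference did not pass (log2 1.65, interval 0.03 to 3.28, adjusted p = 0.581). Of 11 immune checkpoint and inhibitory receptor genes tested, 6 were called lower (median -0.82). Vsir, the inhibitory ligand VISTA, stood at 10.3, 7.49, 10.3 and 7.65 CPM in PLX5622 libraries, against 28.7, 30.0 and 30.0 CPM in controls (log2 -1.72 ± 0.10, SE; adjusted p = 8.07e-11). Lag3 fell to 17.3% of control, Havcr2, which encodes TIM3, to 13.1%, and Cd33 to 20.3%. Sirpa, the CD47 receptor that neurons also express, had an interval from -0.12 to 0.15.

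Chemokine and TGF-beta genes were called in part. Of 18 chemokine and chemokine receptor genes tested, 4 were called lower (median -0.97), beside 1.59% of all genes. Cx3cr1, the fractalkine receptor, stood at 8.15, 2.96, 7.81 and 5.5 CPM in PLX5622 libraries, against 55.9, 53.0 and 54.2 CPM in controls (log2 -3.14 ± 0.21, SE; adjusted p = 6.91e-09). The chemokine Ccl9 fell to 28.0% of control, and Pf4 was also among those called. Of 12 TGF-beta pathway genes tested, Tgfb1, Tgfbr1 and Tgfbr2 were called lower, at 49.5%, 42.9% and 73.6% of control, beside the same 1.59%, and the median was -0.13.

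Of 17 genes of the disease-associated microglial state tested, 4 were called lower, beside 1.59% of all genes, and 0 higher, with a median of -0.05. The called ones were Trem2, Tyrobp and the cathepsins Ctsd and Ctsz, all of them also on other lists here. Apoe, the main brain apolipoprotein, which astrocytes also make, stood at 1140, 1080, 1090 and 1180 CPM in PLX5622 libraries, against 1180, 1060 and 1150 CPM in controls (interval -0.21 to 0.18). Gpnmb stood at 0.51 (interval 0.07 to 0.95, adjusted p = 0.468) and Spp1 at -0.26 (interval -0.98 to 0.47).

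Lysosomal genes showed small falls among abundant transcripts. Of 21, 10 were called lower and 0 higher (median -0.22). Ctsd, the aspartic protease cathepsin D, stood at 295, 272, 282 and 302 CPM in PLX5622 libraries, against 372, 354 and 366 CPM in controls. The groups did not overlap, and the fall was to 79.1% of control (log2 -0.34 ± 0.06, SE; adjusted p = 0.000369). Lgmn, legumain, fell to 76.8%, and Ctsc to 67.1%. The calls of Grn, progranulin (83.8%), Ctsz (79.0%) and Ctsh (63.7%) were each lost in most of the fits that left out 1 library. Grn was kept only without PLX5622 replicate 3, Ctsz only without PLX5622 replicate 4, and Ctsh was lost without PLX5622 replicates 1, 2 or 3 or control replicates 1 or 3, with an adjusted p of up to 0.206 for Grn, 0.194 for Ctsz and 0.215 for Ctsh. Ctsb, cathepsin B, had an interval from -0.09 to 0.08, and Lamp1 one from -0.15 to 0.08. Of 14 genes of the TAM receptors and of apoptotic cell clearance tested, Itgb5, Stab1 and Msr1 were called lower, beside 1.59% of all genes tested. The list's median was -0.07, and Stab1 is also on the border-associated macrophage list. Msr1, a scavenger receptor, was found at 0.0275 CPM in PLX5622 replicate 1 and at 0 in the other 3, against 0.31, 0.357 and 0.272 CPM in controls (adjusted p = 0.00102). The receptors Mertk and Axl were not called, with intervals from -0.41 to 0.29 and from -0.29 to 0.15, and neither was their ligand Gas6 (interval -0.15 to 0.11).

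Markers of border-associated macrophages were lower too. Of 13 tested, 8 were called lower, with a median of -1.73. Mrc1, the mannose receptor CD206, had the largest fall among called genes averaging at least 1 CPM, with 0.248, 0.102, 0.283 and 0.229 CPM in PLX5622 libraries, against 4.68, 4.28 and 4.75 CPM in controls (log2 -4.37 ± 0.30, SE; adjusted p = 8.45e-10). Stab1, the scavenger receptor stabilin-1, stood at 3.0, 2.55, 2.71 and 3.1 CPM in PLX5622 libraries, against 13.2, 16.1 and 17.1 CPM in controls (log2 -2.44 ± 0.13, adjusted p = 1.41e-11). Replicate 2 lay close to the other PLX5622 libraries in Stab1. F13a1, coagulation factor XIII A, fell to 15.7% of control, and Pf4, platelet factor 4, to 0.0826, 0.034, 0.0315 and 0 CPM in PLX5622 libraries, against 0.733, 0.594 and 0.446 CPM in controls. Lyve1 (31.9%) and Cbr2 (30.2%) were called too, but the call of Lyve1 was lost without control replicate 2 (adjusted p = 0.0847) and that of Cbr2 without control replicate 1 (adjusted p = 0.0576). Cd163, the haemoglobin scavenger receptor, was not called (log2 -0.63, interval -1.07 to -0.18, adjusted p = 0.248), and Clec12a stood at 0.02 (interval -0.55 to 0.59). The mean log2 level of the list, with the same small constant added to each CPM, was -0.88, -1.03, -1.0 and -1.01 in PLX5622 replicates 1 to 4. The controls lay at -0.04, -0.02 and 0.06. The constant shrinks the falls of genes at low CPM, such as Pf4, so this mean cannot be compared with that of the homeostatic list.

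Of 16 antigen presentation genes, 3 were called lower, beside 1.59% of all genes tested (median -0.32). They were Psmb8, an immunoproteasome subunit, at 55.1% of control, Cd74, the invariant chain, at 45.1%, and H2-Ab1, an MHC class II chain, at 41.6%. The calls of Cd74 and H2-Ab1 were each lost in several of the fits that left out 1 library. Cd74 was lost without PLX5622 replicates 1 or 4 or control replicate 3 (adjusted p up to 0.176). H2-Ab1 was lost without PLX5622 replicates 3 or 4 or control replicates 1 or 3 (adjusted p up to 0.177). None of 20 interferon-stimulated genes was called, while 19 of them had a log2 fold change below 0 and the median was -0.47. The smallest adjusted p was that of Bst2, the tethering factor tetherin, with 2.2, 2.52, 1.98 and 2.52 CPM in PLX5622 libraries, against 4.88, 2.94 and 3.86 CPM in controls (log2 -0.76, interval -1.19 to -0.32, adjusted p = 0.0796). Of the 20 genes, 7 had an unadjusted p under 0.05, Bst2 was called by DESeq2 and none by limma-voom. Control replicate 1 was the highest library for it. In the sum of the 20 genes that replicate stood at 154 CPM, against 109 and 124 CPM in the other controls and between 103 and 110 CPM in PLX5622 libraries.

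**Figure D3:**
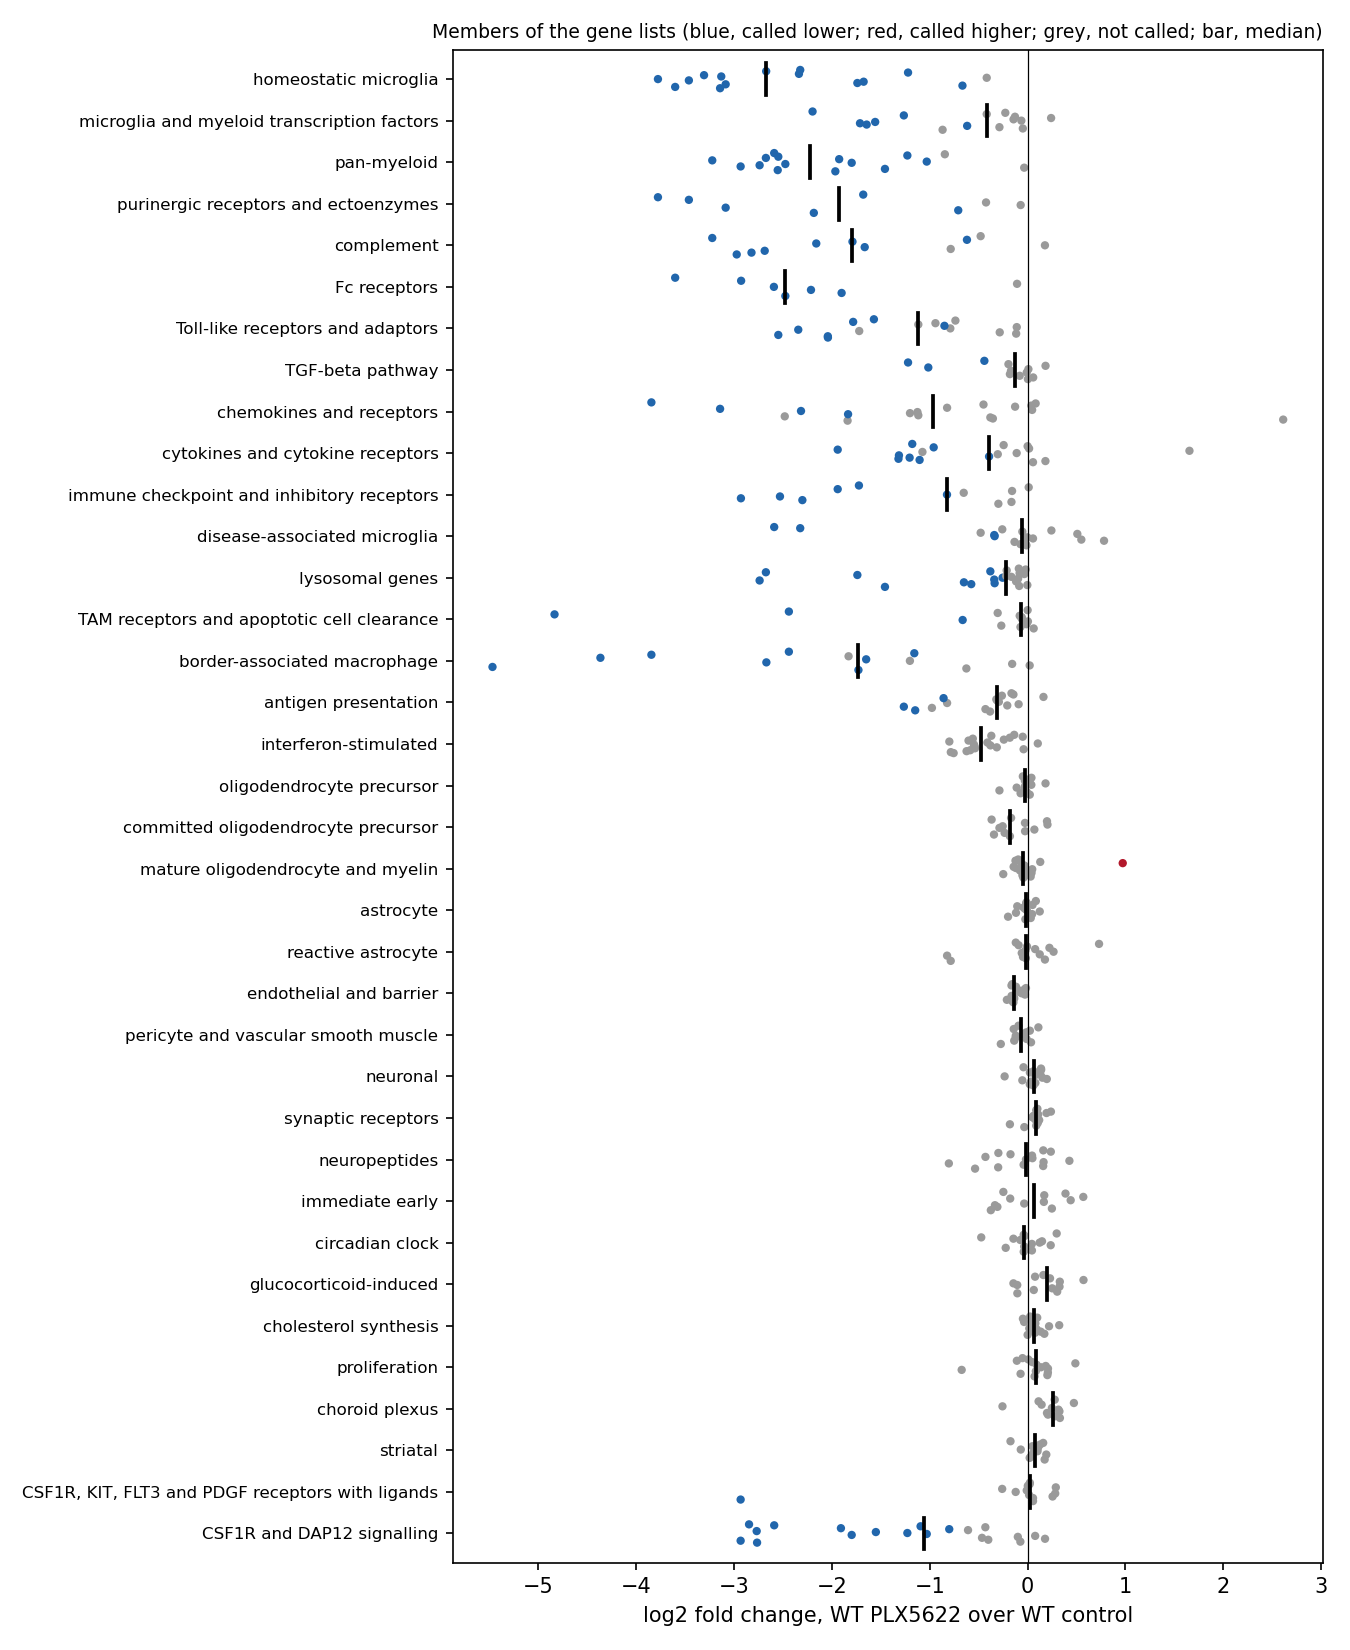
Log2 fold change of WT PLX5622 over WT control (x) for each tested member of the gene lists (rows), with the list median as a bar; blue points were called lower, red higher and grey not called. The lists of blood cell, cerebellar and pituitary genes are not drawn. Blue points fill the myeloid rows and the border-associated macrophage row, while the rows of neuronal, astrocyte, endothelial and oligodendrocyte genes hold grey points near 0, with Nkx6-2 the red one.

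Genes of blood monocytes and neutrophils were mostly not called. Of 12 monocyte and neutrophil genes tested, Csf3r, the G-CSF receptor, was called lower (43.3% of control), and the other 11 were not called. The list's median was 1.08. S100a8, a calcium-binding protein abundant in neutrophils, stood at 3.99, 1.63, 0.661 and 0.315 CPM in PLX5622 libraries, against 0.113, 0.0891 and 0.149 CPM in controls. All 4 PLX5622 libraries lay above all 3 controls, but replicate 1 was far above replicate 4, and the difference did not pass (log2 3.77, interval 1.13 to 6.42, adjusted p = 0.25). Ly6g, a defining neutrophil marker, was at 0.0275 and 0.034 CPM in PLX5622 replicates 1 and 2 and at 0 in the other libraries of both groups. Hba-a1, a haemoglobin gene of red blood cells, stood at 41.5, 16.1, 38.0 and 12.1 CPM in PLX5622 libraries, against 46.2, 49.0 and 26.3 CPM in controls, so blood content varied within both groups. Its part in these values was not tested. In Csf1R-G793A mice the PLX5622 fold change of S100a8 was 2.50 on the log2 scale (adjusted p = 0.176). None of 7 lymphocyte genes tested was called.

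Almost no marker of other brain cells was called. None of 15 astrocyte, 14 oligodendrocyte precursor, 15 neuronal, 14 synaptic receptor or 15 endothelial genes tested was called in either direction, and the medians of these lists lay at -0.01, -0.02, 0.06, 0.09 and -0.14. Gfap, the astrocyte filament protein, had an interval from -0.16 to 0.41, and none of 15 reactive astrocyte genes was called. Pdgfra, the PDGF receptor of oligodendrocyte precursors, stood at 67.4, 68.3, 68.3 and 66.6 CPM in PLX5622 libraries, against 63.6, 67.0 and 69.5 CPM in controls (interval -0.15 to 0.19). Gpr17, a receptor of cells committed to the oligodendrocyte lineage, stood at 61.6, 45.8, 65.3 and 45.8 CPM in PLX5622 libraries, against 64.6, 66.2 and 69.3 CPM in controls. It was low in replicates 2 and 4 and near control in the other two, and it was not called (log2 -0.29, interval -0.61 to 0.03, adjusted p = 0.682). Mbp, myelin basic protein, had an interval from -0.39 to 0.15. All 15 endothelial and barrier genes had a log2 fold change below 0, none past -0.21 (Cldn5, the tight junction protein claudin 5), and Cdh5, VE-cadherin, had the smallest adjusted p of the list at 0.739. None of 18 cholesterol synthesis, 12 glucocorticoid-induced, 12 immediate early, 15 clock or 15 proliferation genes was called. The clock gene Per2 came nearest, with 19.6, 17.8, 21.5 and 18.0 CPM in PLX5622 libraries, against 25.1, 28.4 and 26.6 CPM in controls (log2 -0.47 ± 0.13, SE; adjusted p = 0.0633). The choroid plexus list, with Ttr its most abundant member, ranged from 400 to 1170 CPM in sum in PLX5622 libraries and from 467 to 795 CPM in controls, and none of its 12 genes was called. No striatal gene of 12 was called. Across the 21 lists with no edgeR call, interferon genes included, 21 genes had an unadjusted p under 0.05, DESeq2 called 3 (Bst2 and the clock genes Per2 and Usp2) and limma-voom 0.

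Of the 257 lower genes, 98 were on one of the 41 lists and 159 on none. The following groups were put together after the values were seen and carry no test of their own. All 7 genes of the phagocyte NADPH oxidase were called lower (median -1.25), with Ncf1, the p47phox subunit, at 22.8% of control and Cybb, the catalytic gp91phox chain, at 42.5%. The calls of 3 of the 7 were kept without any 1 library. Cybb was kept only without PLX5622 replicate 4 (adjusted p up to 0.139), and Cyba, the p22phox chain, only without control replicates 2 or 3 (adjusted p up to 0.261). Rac2 was lost without PLX5622 replicate 4 (adjusted p = 0.0513) and Hvcn1 without control replicate 1 (adjusted p = 0.0763). Of 13 genes for eicosanoid enzymes and receptors, 7 were called lower (median -1.27). Ptafr, the platelet-activating factor receptor, fell by 2.74 on the log2 scale, and Ptgs1, cyclooxygenase 1, fell to 60.0% of control, with 9.2, 8.3, 8.81 and 9.75 CPM in PLX5622 libraries, against 14.4, 15.6 and 15.1 CPM in controls. Ptgds, the brain's abundant prostaglandin D synthase, had an interval from -0.25 to 0.37, beside the fall of Hpgds, the haematopoietic enzyme for the same step. Of 12 actin regulators of blood cells, 11 were called lower (median -2.07), among them Nckap1l, a subunit of the haematopoietic WAVE complex, at 20.7% and Dock2, a Rac activator, at 19.9%.

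Some of the called falls were of genes on none of these lists or groups. They too are named after their values were seen. Srsf7 and Srsf10, splicing factors, stood at 82.6% and 81.9% of control (log2 -0.28 ± 0.05 and -0.29 ± 0.06, SE; adjusted p = 0.0022 and 0.003), and both calls were kept without any 1 of the 7 libraries. Hk2, hexokinase 2, stood at 2.64, 2.45, 2.49 and 2.67 CPM in PLX5622 libraries, against 5.19, 4.16 and 3.94 CPM in controls (log2 -0.79 ± 0.13, adjusted p = 0.000318). Slco2b1, an organic anion transporter, fell to 44.8% of control (adjusted p = 1.8e-08). Ecscr, named for endothelial cells, fell to 39.4% (adjusted p = 0.000691), while 0 of the 15 endothelial and barrier genes listed were called. Which cells carry these transcripts here was not tested. Falls of small size were the least stable: of the 80 lower calls with a log2 fold change above -1, 39 were kept in all 7 fits that left out 1 library, against 72 of the 82 under -2. By list, the calls kept in all 7 fits were 5 of 6 for Fc receptors, 5 of 7 for Toll-like receptors, 5 of 8 for cytokine genes, 5 of 6 for inhibitory receptors, 5 of 8 for border-associated macrophages, 6 of 7 for eicosanoid genes and 10 of 11 for the actin regulators. Symbols with near-identical relatives, such as Ms4a6b, Ms4a6c and Ms4a6d, Csf2rb and Csf2rb2, or Clec4a2 and Clec4a3, may share reads, and how much of a count belongs to each is uncertain.

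The 12 genes called higher changed by little. Fam76b was the steadiest, with 7.71, 9.73, 8.37 and 8.6 CPM in PLX5622 libraries, against 4.65, 5.7 and 5.3 CPM in controls (log2 0.72 ± 0.15, SE; adjusted p = 0.00558). It was kept in 6 of the 7 fits without 1 library, and lost without control replicate 1 (adjusted p = 0.0654). Nkx6-2, a homeobox factor of oligodendrocytes, stood at 4.68, 4.46, 3.65 and 4.47 CPM in PLX5622 libraries, against 3.21, 1.66 and 1.73 CPM in controls (log2 0.97 ± 0.22, adjusted p = 0.0175). Control replicate 1 was the highest control, and the call was lost without control replicate 2 (adjusted p = 0.151) or replicate 3 (adjusted p = 0.173). Hunk, a protein kinase, stood at 29.1, 32.3, 24.7 and 32.2 CPM in PLX5622 libraries, against 19.0, 19.8 and 17.7 CPM in controls (log2 0.65, adjusted p = 0.0132). Its call was lost without PLX5622 replicates 2 or 4 or control replicates 1 or 3 (adjusted p up to 0.102). Npy1r, a neuropeptide Y receptor, and Plvap, the diaphragm protein of fenestrated endothelium, were called with log2 fold changes of 0.33 and 0.38 (adjusted p = 0.0464 and 0.0356). Npy1r was kept only without control replicate 2, and Plvap only without PLX5622 replicates 1 or 3. Dact2, Brme1, Jph1, Mfsd11, Zc3h6, Znhit2 and Vmn1r236 made up the rest. Vmn1r236 belongs to a large family of similar vomeronasal receptors, and its counts are uncertain for that reason. Without PLX5622 replicate 1, 21 genes were called higher and 9 of these 12 were among them, and without control replicate 3, 2 genes were called higher and 1 of these 12 was among them. Counts without PLX5622 replicates 2 or 4 or control replicate 1 were 5, 3 and 3.

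**Figure D4:**
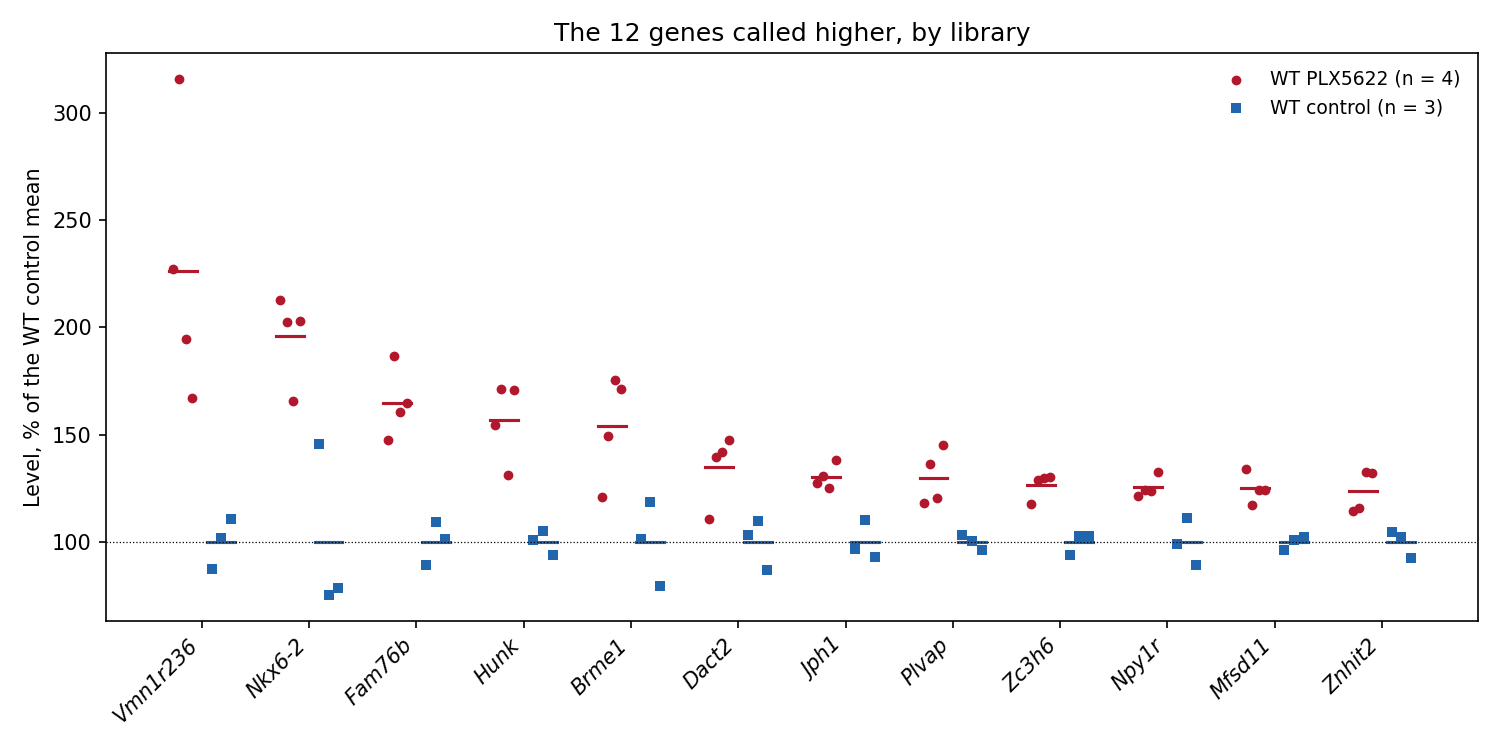
The 12 genes called higher, each library as a percent of the WT control mean (y), by gene (x); circles are WT PLX5622 libraries, squares WT control libraries and bars group means. No circle lies below a square of its gene, but in Dact2 and Brme1 the highest control is close to the lowest PLX5622 library.

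For many genes the falls were smaller in Csf1R-G793A brains on the same chow. The test of the difference, the PLX5622 fold change in WT minus that in Csf1R-G793A, called 131 genes (124 without both libraries with cerebellar transcripts), of which 130 were lower (0.802% of genes tested) and 1 higher (0.00617%), namely Plcxd1, named here after its value was seen. Csf1r differed by -2.75 ± 0.27 on the log2 scale (SE; adjusted p = 5.46e-06): its fold change was -2.93 in WT, against -0.18 ± 0.18 in Csf1R-G793A, where it stood at 88.0% of the genotype's own control. P2ry12 had a fold change of -3.46 in WT, against -0.15 ± 0.16 in Csf1R-G793A, a difference of -3.32 (adjusted p = 1.34e-07). P2ry13, Pld4, Siglech and Stab1 completed the 5 genes with the smallest p, with differences of -3.65, -2.75, -2.89 and -2.07. Mrc1, the border macrophage gene, differed by -4.0. Over the 257 genes lower in WT, the median fold change in Csf1R-G793A was -0.17. Within Csf1R-G793A, PLX5622 against control gave 0 calls (0%) by edgeR, 2639 genes at an unadjusted p under 0.05, 0 calls by limma-voom and 313 by DESeq2, and 980 calls by edgeR without Csf1R-G793A control replicate 2. Of the 12 genes higher in WT, 0 passed the test of a difference between the genotypes, with adjusted p from 0.149 to 0.819. By list, 13 of 15 homeostatic microglia genes, 14 of 16 pan-myeloid genes and 5 of 13 border-associated macrophage genes had a difference called lower, and 0 of 15 neuronal, 15 astrocyte or 14 oligodendrocyte precursor genes did.

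**Figure D5:**
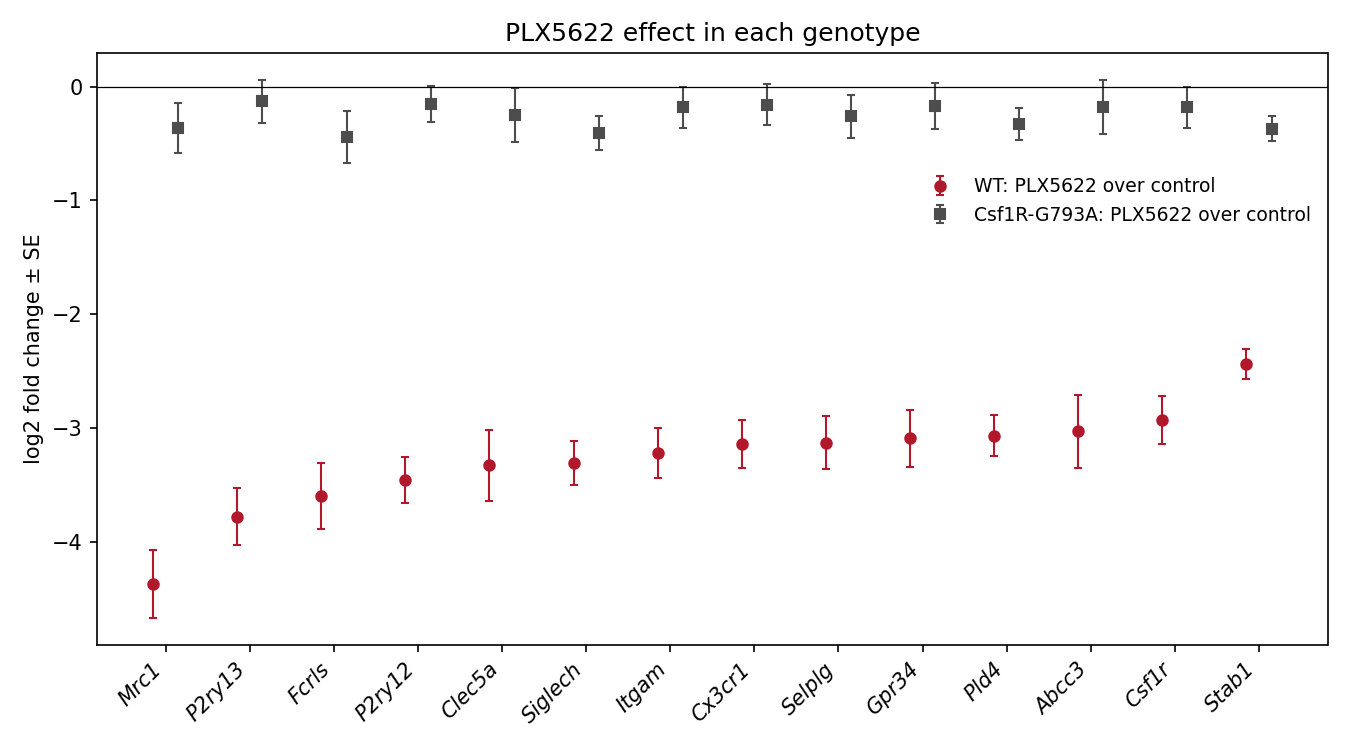
Log2 fold change of PLX5622 over the genotype's own control ± SE (y) for 14 genes whose effect differed between genotypes (x), drawn from Csf1r, the 12 largest WT falls and the 5 genes with the smallest p for that difference; circles are WT and squares Csf1R-G793A. Circles lie between -4.37 and -2.44, and squares between -0.44 and -0.13.

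PLX5622 and PLX3397, the other inhibitor, were given at different doses (1200 and 290 mg/kg), so their values stand side by side. With edgeR, WT PLX5622 against WT PLX3397 gave 0 calls (0%), with 664 genes at an unadjusted p under 0.05, 0 calls by limma-voom and 14 by DESeq2. Over the 257 genes lower against control, the median log2 difference of PLX5622 from PLX3397 was -0.22, against -0.001 over all genes. Those genes were chosen for low values in these same PLX5622 libraries, which by itself lowers that median, so it does not rank the inhibitors. Csf1r stood at -0.92 (95% interval -1.34 to -0.51, adjusted p = 0.427) and P2ry12 at -0.87 (interval -1.30 to -0.44, adjusted p = 0.516). The 5 smallest p-values belonged to Lag3, Cx3cr1, the pseudogene Lamtor3-ps, Vsir and Gm6710. Lag3, an inhibitory receptor, had a difference of -1.29 (adjusted p = 0.0627), Cx3cr1 one of -1.10 (adjusted p = 0.207) and Vsir one of -0.49 (adjusted p = 0.226). Without PLX5622 replicate 1, 7 genes were called, and without replicate 3, 2 genes.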

How the data were processed

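Bulk brain RNA-seq of 7 WT libraries (4 PLX5622, 3 control) was taken from a deposited table of all 23 libraries. The authors deposited expected counts (estimated counts, as kallisto gives) per gene symbol, not scaled. The submitters' processing notes list kallisto 0.46.1, GRCm39, DESeq2 1.26.0 and FastQC 0.11.9, and per the labels the stranded libraries were oligo-dT selected. How transcripts were summed to genes is not stated. Of the values, 45.3% are not whole. Counts were rounded, and 1 entry with no name (0.0118% of counts) was left out of 22310 named genes.

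Tests used edgeR 4.0.16 under R 4.3.3, with TMM scaling, filterByExpr (minimum count 10, minimum total 15), one robust quasi-likelihood model of all 23 libraries with a term per group, two-sided tests and Benjamini-Hochberg adjustment over 16209 genes. The common biological coefficient of variation was 0.0998, and the SE of a log2 fold change is its size over the root of its F statistic. CPM uses TMM-scaled library sizes. Promoters were matched by symbol to RefSeq. The test was also run on simulated counts, in which no library stood apart in regional transcripts. That run does not cover a library such as WT PLX5622 replicate 1, and its outcome is not reported here. Alternatives were RLE scaling, other filters, limma-voom (limma 3.58.1), DESeq2 1.42.0, a non-robust fit, a replicate block, the compared groups alone, WT libraries numbered in the 400s, and leaving out each library. Leaving out both libraries with cerebellar transcripts was added after seeing the data. The comparison, the 41 lists and the naming rule were chosen with earlier results of these data known. The rule names Csf1r, Csf1 and Il34, all genes called higher, the 12 largest falls at a mean of 1 CPM or more, up to 4 called members of each list, the smallest p in a list with no call, and the smallest p-values of the other contrasts. Other genes are named as list members, or after their values were seen. Within WT PLX5622 and WT control, no replicate repeats another: chi-square per degree of freedom was 6.79 to 17.2 over the 9 pairs. A variance-stabilised table was not used here. Some genes that the rule or the lists name are not reported here.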

Additional observations from a re-analysis of the deposited data

Results flagged for a closer look

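In 12 of 100 genes checked, 1 of the 4 WT PLX5622 libraries lay far from the other 3. Chance gives about 1 in 20, but the 2 counts cannot be compared: Prl, Gh, Cbln3 and Pcp2 mark transcripts that replicate 1 was known to hold when the genes to check were chosen, and Msr1 and Lamtor3-ps have counts in 1 library alone. Replicate 1 was the high library for the pituitary hormones Prl (66.1 CPM, others 0 to 6.56) and Gh (30.3 CPM, others 0 to 3.12), and for the cerebellar genes Cbln3 (30.8 CPM, others 0.944 to 1.16) and Pcp2 (8.73 CPM, others 0.189 to 0.373). It was also high in Csf3r (2.7 CPM, others 1.15 to 1.35) and Tgfbr1 (19.0 CPM, others 14.9 to 15.4), was the one library with counts of Msr1 (0.0275 CPM) and Lamtor3-ps (0.0551 CPM), and was low in Zc3h6 (23.8 CPM, others 26 to 26.3). Replicate 2 was low in Pld4 (0.442 CPM, others 1.07 to 1.16) and Tyrobp (0.953 CPM, others 2.01 to 2.12). Replicate 3 was high in Tgfb1 (2.99 CPM, others 1.95 to 2.04).

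The PLX5622 effect differed between WT and Csf1R-G793A, by the interaction term in edgeR, in 14 of 28 genes checked, beside 0.802% of all genes tested for a lower value. The 28 were Csf1r and its ligands, the 12 largest falls, the 12 genes called higher and the 5 with the smallest interaction p, so their choice sets that count. The log2 differences, WT minus Csf1R-G793A, were -4.0 in Mrc1, -3.65 in P2ry13, -3.32 in P2ry12, -3.16 in Fcrls, -3.08 in Clec5a, -3.04 in Itgam, -2.98 in Cx3cr1, -2.91 in Gpr34, -2.89 in Siglech, -2.88 in Selplg, -2.86 in Abcc3, -2.75 in Csf1r, -2.75 in Pld4 and -2.07 in Stab1.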

How the results depend on the processing

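The number of genes called higher in WT PLX5622, 12, moved with the setting. It was 27 with DESeq2, 7 with no low-count filter, 3 with WT libraries numbered in the 400s alone and 7 with the replicate block. It was 22 without both libraries with cerebellar transcripts (WT PLX5622 replicate 1 and Csf1R-G793A PLX5622 replicate 2), and between 2 and 21 when 1 library was left out. In the groups compared, the libraries numbered in the 400s were the 3 controls and PLX5622 replicates 1 and 2. PLX5622 replicates 3 and 4 carry higher numbers, and what the numbers stand for is not stated. With the 400s alone, 194 genes were called lower, and 184 of the 257 lower calls were kept. Replicate numbers gave no sign of pairing: the residuals of same-numbered PLX5622 and control libraries correlated at -0.0188, 0.0938 and -0.0893. Against WT PLX3397, the 0 calls became 14 with DESeq2, 1 with no low-count filter, 6 without both libraries with cerebellar transcripts, and between 0 and 7 when 1 library was left out. The cause was not tested. The single genes and the count in Csf1R-G793A were also followed over the settings. The values of that count of 313 with DESeq2 and 980 without control replicate 2 stand apart. Of the rest, 1530 values kept their side of the threshold or, for the count, stayed at 0. Another 120 were of called genes that kept direction but no longer passed, and 4 newly passed. Genes called in the main fit changed sign in 0 cases. Changes of sign among genes not called were not counted. Genes under about 1 CPM, 32 of the 257 lower ones in controls, rest on few counts.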
